A study of Homo sapiens with 9 samples.

Results

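Meiosis-specific components of the chromosome axis, the synaptonemal complex and the recombination machinery were followed in the transcriptome of PC-3 cells, a line established from a human prostate cancer. The set holds 10 genes of the 60617 gene identifiers counted, chosen by symbol and matched to the Ensembl identifiers of the count files. REC8, STAG3 and SMC1B encode subunits of meiotic cohesin, SYCP2, SYCP3 and HORMAD1 proteins of the chromosome axis, SYCP1 and SYCE1 proteins of the central region of the synaptonemal complex, and DMC1 and MEIOB factors of strand exchange. The 9 RNA-seq libraries comprised 3 controls (Ctrl), 3 libraries treated with decitabine (Dec) and 3 treated with decitabine together with S-adenosylmethionine, SAM (Dec_Sam, here the combination). Decitabine is a nucleoside that traps DNA methyltransferases and so lowers DNA methylation, and SAM is the methyl donor of these enzymes. All libraries share 1 parental line and were made 5 days after the treatment began, with medium renewed every other day. The study's treatment methods give 1 µM of decitabine and 200 µM of SAM, and a vehicle for the controls. A group treated with SAM alone was not analysed here, so an effect of SAM without decitabine cannot be read from these libraries.

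In germ cells that enter meiosis, cohesin complexes carrying REC8, STAG3 and SMC1B hold the sister chromatids, and the axis proteins assemble on them as a core from which chromatin loops emanate. SYCP1 and the central element proteins then join the paired axes as a zipper, while programmed DNA breaks are repaired on the homologous chromosome by DMC1 with the help of MEIOB and its partners. Prostate epithelium divides by mitosis only, and these genes are best known for their expression in testis and fetal ovary; several of them are also known as cancer-testis genes, which are expressed in some tumors.

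The libraries held 21934307 to 22489684 estimated counts each. Values are given as these counts or as CPM, counts relative to the library total after TMM scaling, which corrects for differences in RNA composition. The epithelial keratin genes KRT8 and KRT18 were detected in all libraries (summed CPM of KRT8, KRT18, EPCAM and CDH1 from 528 to 685), whereas of the luminal prostate markers KLK3 held no counts and KLK2 0 to 24, the latter called higher after both treatments. Of all genes tested, 36.3% were called higher and 32.5% lower after decitabine than in the controls. Without the TMM factors, which were 0.895 to 0.902 in the controls and 1.033 to 1.078 in the treated libraries, the median change of all genes, in log2 units, moved from 0.035 to 0.28 and the calls from 6729 higher and 6030 lower to 8849 higher and 3746 lower. Fewer cells of a type and less RNA per cell cannot be told apart in such bulk samples. The labels do not say that the libraries came from separate cultures, so all p-values measure the spread between libraries, which may be technical, and the intervals on counts cover counting error only.

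The controls held the set at very low levels. SMC1B, HORMAD1, SYCP1 and SYCE1 had no counts in any of the 3 control libraries, SYCP3 had 1 count, DMC1 3 and MEIOB 4 over all 3. REC8, STAG3 and SYCP2 were the only members with a clear control signal, at 143, 111.6 and 83 counts summed over the group. After decitabine, 8 of the 10 genes reached the count minimum of the test, and all 8 were called higher than in the controls at an adjusted p under 0.05 (edgeR quasi-likelihood test, Benjamini-Hochberg over 18532 genes), where 36.3% of all genes tested were called higher. After the combination the same 8 were called higher, beside 35.9% of all genes. The treated libraries lay above all 3 controls for each of the 8, as they did for 38.1% of all genes tested after decitabine and 38% after the combination. Of these 8, 5 passed the count minimum only through the treated libraries and so had to differ, and their number carries no weight of its own. SYCP1 and DMC1 stayed below the minimum in every group.

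**Figure D1:**
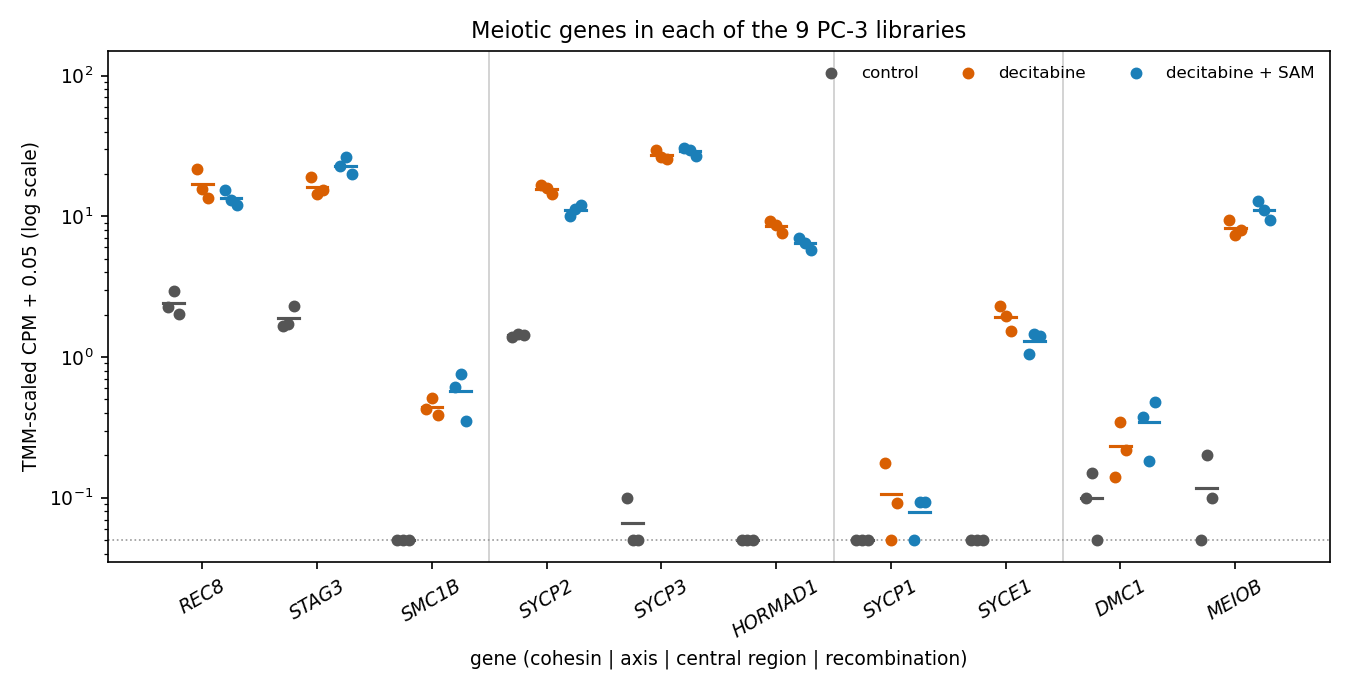
Level of each of the 10 genes in each library, as TMM-scaled CPM plus 0.05 on a log axis, with the mean of the 3 libraries as a bar and the dotted line marking 0 counts. The treated libraries lie above all 3 controls for 8 genes, while SYCP1 and DMC1 remain near the floor.

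Promoter sequences were read from RefSeq (GRCh38.p14) for 8 of the 10 members; HORMAD1 and MEIOB had no entry in the table used. They are shown because decitabine acts on the enzymes that methylate CpG sites, and to set members called higher beside those below the count minimum. SMC1B and DMC1 lie close to each side of that minimum. After decitabine their libraries overlapped, with means of 0.093 and 0.081 CPM per kilobase of transcript. For SYCP3, SYCP2 and SMC1B, which were called higher, and SYCP1 and DMC1, which stayed below the minimum, a stretch upstream of the start of the main annotated transcript, without bases that lie in annotated exons except to complete a motif, is given 5′ to 3′ on the gene's own strand, with the letters GCGGGA, the core of an E2F site, in capitals on either strand.
SYCP3, chr12:101739473-101739577, minus strand: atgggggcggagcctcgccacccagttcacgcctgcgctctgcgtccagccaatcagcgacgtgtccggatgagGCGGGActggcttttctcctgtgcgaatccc
SYCP2, chr20:59933656-59933763, minus strand: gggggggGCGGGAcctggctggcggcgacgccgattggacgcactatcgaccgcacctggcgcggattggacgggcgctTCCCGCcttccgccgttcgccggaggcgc
SMC1B, chr22:45413619-45413692, minus strand: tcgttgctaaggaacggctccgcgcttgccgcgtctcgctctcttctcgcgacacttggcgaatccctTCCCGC
SYCP1, chr1:114854613-114854862, plus strand: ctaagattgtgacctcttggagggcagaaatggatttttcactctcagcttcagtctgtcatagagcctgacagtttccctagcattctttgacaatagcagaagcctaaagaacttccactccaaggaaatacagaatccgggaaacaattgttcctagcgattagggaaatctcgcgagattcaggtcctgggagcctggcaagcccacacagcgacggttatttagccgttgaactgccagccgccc
DMC1, chr22:38570205-38570433, minus strand: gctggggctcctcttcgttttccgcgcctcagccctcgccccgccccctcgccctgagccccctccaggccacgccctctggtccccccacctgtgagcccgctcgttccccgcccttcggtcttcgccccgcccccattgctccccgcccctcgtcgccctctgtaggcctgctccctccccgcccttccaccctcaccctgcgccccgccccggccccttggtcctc

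In windows of 300 bases, from 250 before the start to 50 after it, the 10 windows of these 8 genes had a median of 28 CpG sites, beside 14 over all 35116 windows of the table. Their median ratio of observed to expected CpG was 0.857, beside 0.579 over all windows. The window of SYCP1 held the fewest CpG sites of the set, 15, at a GC content of 52.7%, and that of SYCP2 the most, 41, at 75.3%. The DMC1 window held 29 sites, and the 15 of SYCP1 lay near the median of 14 over all windows. Whether the number of sites bears on the levels of the members was not tested. GCGGGA, searched on both strands, occurred in a window of 7 of the 8 genes, all but DMC1. The match of SYCP1 lay downstream of the start and 1 of the 2 of SMC1B farther upstream, both outside the stretches shown. The same letters occurred in 26.9% of all windows, and in 47.5% of the 17186 windows with at least 15 CpG sites. Counted by window, as these shares are, 90% of the 10 member windows held them. The cutoff of 15 lies below the member median of 28 sites, so these windows are not matched to the members in CpG number. Whether the letters are more frequent in the members than in windows of like CpG number was not tested. CACGTG, an E-box, occurred in STAG3 and SYCE1, in 7.26% of all windows and in 10.1% of those with at least 15 CpG sites. TGACG, the core of a cAMP response element, occurred in SMC1B and in 24.6% of all windows. No methylation was measured in the files used here.

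Among the cohesin subunits, REC8 and STAG3 were detected in all libraries and SMC1B only in the treated ones. REC8 (chr14:24171853-24180257), the kleisin that separase cleaves at the meiotic divisions, held 45, 58 and 40 counts in the controls. It held 514, 372 and 318 counts after decitabine and 351, 296 and 280 after the combination. All treated libraries lay above all controls, and decitabine replicate 1 stood highest. The log2 fold change was 2.84 after decitabine (SE 0.20, adjusted p = 5e-08) and 2.50 after the combination (SE 0.21, adjusted p = 1.8e-07), that is 7.15-fold and 5.65-fold. The 3′ end of REC8 overlaps IPO4 on the opposite strand, which had mean counts of 5149, 4662 and 3379 in the 3 groups, and the sources used do not say whether counting used the strand.

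SMC1B (chr22:45344063-45413619), the meiotic counterpart of the cohesin ATPase SMC1A, had 0 counts in each control. It had 9, 11 and 8 counts after decitabine and 13, 16 and 7 after the combination. The treated libraries did not overlap the controls but remained near the limit of detection. Against a floor of 3 counts over the control group, SMC1B was at least 7.94-fold higher after decitabine (adjusted p = 0.00022) and at least 10.48-fold higher after the combination (adjusted p = 9e-05).

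STAG3 (chr7:100177563-100214387), the regulatory subunit of meiotic cohesin, held 32.4, 33.5 and 45.7 estimated counts in the controls, 450.3, 338.3 and 362.0 after decitabine and 517.6, 594.0 and 468.4 after the combination. The 3 groups did not overlap, in the order control, decitabine, combination. The log2 fold change was 3.14 after decitabine (SE 0.18, adjusted p = 2.7e-09) and 3.63 after the combination (SE 0.17, adjusted p = 5.9e-10). A protein-coding gene on the same strand, ENSG00000292277, overlaps STAG3 and was not among the identifiers counted, so its part in the STAG3 counts is not known. STAG3 has near-identical partial copies in the genome, STAG3L1, STAG3L2, STAG3L3, STAG3L4 and STAG3L5P, so that the division of reads among them is uncertain. The copies summed to 58.0, 62.3 and 59.0 CPM in the controls, 53.9, 46.0 and 53.6 after decitabine and 39.3, 45.6 and 45.7 after the combination. After decitabine 2 of the 5 copies were called lower, beside 32.5% of all genes, and after the combination all 5, beside 31.3%, while STAG3 lay higher. In the main fit STAG3L2 and STAG3L3 stood at 0.03 and 0.01 on the log2 scale after decitabine and were not called. Scaled by library size alone, 1 was called higher and 1 lower after decitabine, with STAG3L1 changing sign, and none after the combination. As counts, the copies summed to 1168 to 1246 a library in the controls, 1090 to 1274 after decitabine and 902 to 1072 after the combination. The controls and decitabine thus overlapped before TMM scaling. The sum of STAG3 and its copies was 61.6 ± 2.23 CPM (SD, n = 3) in the controls, 67.4 ± 6.46 after decitabine and 66.4 ± 5.00 after the combination. When STAG3 and its copies were tested as 1 gene, an alternative chosen after seeing the data, the log2 fold change was 0.13 after decitabine (adjusted p = 0.189) and 0.11 after the combination (adjusted p = 0.271), and neither was called. The copies made up most of that sum, 58.0 of 59.6 CPM in control replicate 1. A rise of STAG3 alone would therefore change the sum far less than STAG3, and the test of the sum does not decide whether STAG3 rose.

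**Figure D2:**
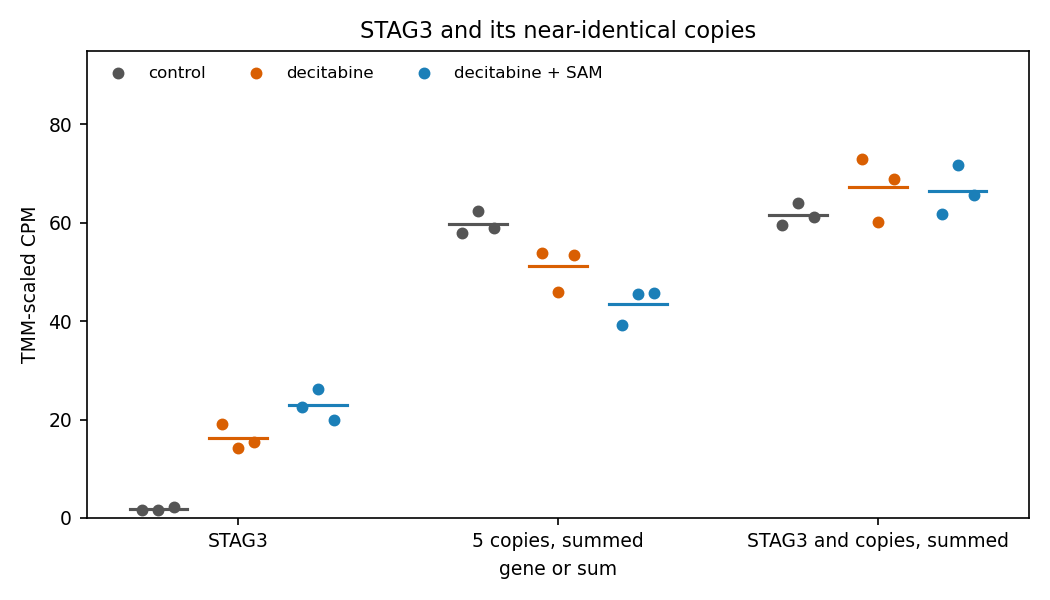
TMM-scaled CPM of STAG3, of its 5 near-identical copies summed and of all 6 genes summed in each library, with the group mean as a bar. On this scale STAG3 lies higher and the summed copies lower in the treated groups. STAG3L1 changed sign after decitabine with scaling by library size alone. As counts, the copies overlapped between the controls (1168 to 1246 a library) and decitabine (1090 to 1274). The sums of all 6, with means of 61.6, 67.4 and 66.4 CPM, overlap.

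SYCP3 had the largest ratio to the controls among the members with control counts, and HORMAD1 the largest lower bound among those without. SYCP3 (chr12:101728648-101739472), which builds the filaments of the lateral elements, had 1, 0 and 0 counts in the controls. It had 694, 627 and 599 counts after decitabine and 705.1, 668.1 and 632 after the combination. Every treated library held at least 599 counts, beside 1 in all controls together. The ratio to the controls was 1634 after decitabine (95% counting interval 293 to 64560, adjusted p = 2.6e-12) and 1750 after the combination (314 to 69170, adjusted p = 2.3e-12). The only control count of SYCP3 was in replicate 1, and without that library the fitted log2 fold change moved from 10.25 to 12.25 for decitabine and from 10.35 to 12.35 for the combination, since the controls were then at 0. SYCP3 lies within CHPT1 on the opposite strand, whose mean counts were 2267, 2271 and 2667 and so did not follow those of SYCP3.

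SYCP2 (chr20:59863564-59933655), the partner of SYCP3 in the lateral elements, was already detected in the controls, at 27, 28 and 28 counts. It held 395, 377 and 337 counts after decitabine and 229, 255 and 283 after the combination. The 3 groups did not overlap, and decitabine stood highest. The log2 fold change was 3.50 after decitabine (SE 0.15, adjusted p = 1.4e-10) and 3.01 after the combination (SE 0.15, adjusted p = 7.3e-10).

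HORMAD1 (chr1:150698060-150720895), which marks unsynapsed axes and promotes break formation, had no counts in the controls. It stood at 9.26, 8.56 and 7.50 CPM after decitabine, 219 to 177 counts, and at 7.01, 6.42 and 5.75 CPM after the combination, 161 to 135 counts. All treated libraries lay above the controls, and all decitabine libraries above those of the combination. It was at least 169.9-fold higher after decitabine (adjusted p = 1e-09) and at least 128.6-fold higher after the combination (adjusted p = 2.1e-09) against the floor of 3 control counts.

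The genes of the central region differed from each other. SYCE1 (chr10:133553901-133569835), a central element protein, had 0 counts in each control, 53, 45 and 35 after decitabine and 23, 32 and 32 after the combination. The 3 groups did not overlap, and decitabine stood highest. Its level was at least 37.7-fold higher after decitabine (adjusted p = 3.9e-07) and at least 25.3-fold higher after the combination (adjusted p = 1.5e-06). A long non-coding RNA, ENSG00000288107, whose main transcript starts 276 bases from that of SYCE1, overlaps the gene on the opposite strand; its mean counts were 5.57, 31.1 and 20.9, so it was higher in the treated groups too, and reads of the overlap cannot be assigned without the strand. SYCP1 (chr1:114854863-114995370), the transverse filament that spans the complex, had 0, 0 and 0 counts in the controls, 3, 0 and 1 after decitabine and 0, 1 and 1 after the combination. A difference in SYCP1 was not detectable at this depth (two-sided exact permutation p = 0.4 for each treatment against the controls). The smallest p that 3 against 3 libraries allow is 0.1.

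The recombination genes differed as well. MEIOB (chr16:1833986-1872178), a single-strand DNA binding protein related to replication protein A, had 0, 3 and 1 counts in the controls. It had 222, 173 and 187 counts after decitabine and 295, 249 and 221 after the combination. All treated libraries lay far above the controls. The log2 fold change was 6.84 after decitabine (SE 0.36, adjusted p = 1.5e-09) and 7.27 after the combination (SE 0.35, adjusted p = 6.5e-10). In terms of counts this was a ratio of 124 (95% counting interval 48.1 to 456) and of 167 (64.9 to 614). Control replicate 2 held 3 of the 4 control counts, and without it the log2 fold changes were 8.07 and 8.51. MEIOB overlaps the 3′ end of FAHD1 on the opposite strand, whose mean counts, 604, 460 and 370, lay in the reverse order. A protein-coding gene on the same strand, ENSG00000289722 (chr16:1833987-1884294), covers nearly all of the MEIOB span. It was not among the identifiers counted, so its part in the MEIOB counts is not known.

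DMC1 (chr22:38518948-38570204), the meiotic recombinase that carries out strand invasion, had 1, 2 and 0 counts in the controls, 2.1, 7 and 4 after decitabine and 7.4, 3 and 10 after the combination. It was 3.69 times the control level after decitabine (95% counting interval 1.01 to 20.2, exact permutation p = 0.2) and 5.82 times after the combination (1.73 to 30.6, exact permutation p = 0.1). The combination libraries did not overlap the controls, yet the count minimum kept DMC1 out of the test. With no minimum, its adjusted p in edgeR was 0.0141 for the combination and 0.123 for decitabine.

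Per kilobase of the annotated transcript, the members fell into an order that changed with treatment. In the controls REC8 stood first at 1.04 ± 0.21 CPM per kilobase (SD, n = 3), before STAG3 at 0.44 ± 0.085 and SYCP2 at 0.25 ± 0.0056, and every other member was at or below 0.036. These first 3 did not overlap each other. After decitabine SYCP3 led at 24.2 ± 1.84 CPM per kilobase, followed by REC8 at 7.45 ± 1.88. HORMAD1, MEIOB and STAG3 followed at 4.43 ± 0.47, 4.39 ± 0.57 and 3.86 ± 0.60, with overlapping libraries, and below them came SYCP2 at 2.82 ± 0.22 and SYCE1 at 1.49 ± 0.30. SMC1B and DMC1, at 0.093 ± 0.015 and 0.081 ± 0.046, overlapped each other. After the combination SYCP3 led again at 25.9 ± 1.72, and MEIOB, REC8 and STAG3 overlapped at 5.93 ± 0.92, 5.89 ± 0.75 and 5.45 ± 0.74. HORMAD1 then stood alone at 3.36 ± 0.33, before SYCP2 at 2.0 ± 0.19 and SYCE1 at 1.0 ± 0.18. Cohesin, axis and recombination genes therefore reached levels far apart from each other, from about 0.1 to over 20 CPM per kilobase, and SYCP1, at 0.016 ± 0.019 and 0.0083 ± 0.0072 in the treated groups, was at the bottom of both orders.

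The mitotic counterparts of these proteins, by contrast, were expressed in every library and lay lower after treatment. Of the 8 such genes reported, 8 fell after decitabine, where 32.5% of all genes fell, and 8 after the combination, where 31.3% did, by 0.77 to 0.30 on the log2 scale after decitabine. Per kilobase, STAG1 and STAG2, the mitotic equivalents of STAG3, stood at 6.34 ± 0.17 and 37.7 ± 2.05 CPM in the controls and at 4.33 ± 0.59 and 29.5 ± 2.49 after decitabine. SMC1A, the equivalent of SMC1B, stood at 30.8 ± 1.58 CPM per kilobase in the controls and 18.1 ± 1.30 after decitabine, which left SMC1B far below it in each group. RAD21, the mitotic kleisin in the place of REC8, stood at 92.6 ± 3.88 and 63.2 ± 5.61. SMC3, shared by mitotic and meiotic cohesin, fell from 21.6 ± 0.36 to 12.6 ± 1.36, a log2 fold change of -0.77 (SE 0.078, adjusted p = 7.7e-07).

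RPA1, RPA2 and RPA3, the replication protein A subunits to which MEIOB is related, stood at 32.7 ± 0.41, 82.2 ± 4.36 and 24.5 ± 1.22 CPM per kilobase in the controls. After decitabine they stood at 21.6 ± 1.36, 66.8 ± 4.97 and 16.3 ± 0.99, and no counterpart was called different between the treatments. Scaled by library size alone, 6 of the 8 fell after decitabine, beside 20.2% of all genes, and 5 after the combination, beside 20.8%, and none changed its sign: STAG2 and RPA2 lost the call after decitabine, and STAG2, RPA2 and RPA3 after the combination.

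**Figure D3:**
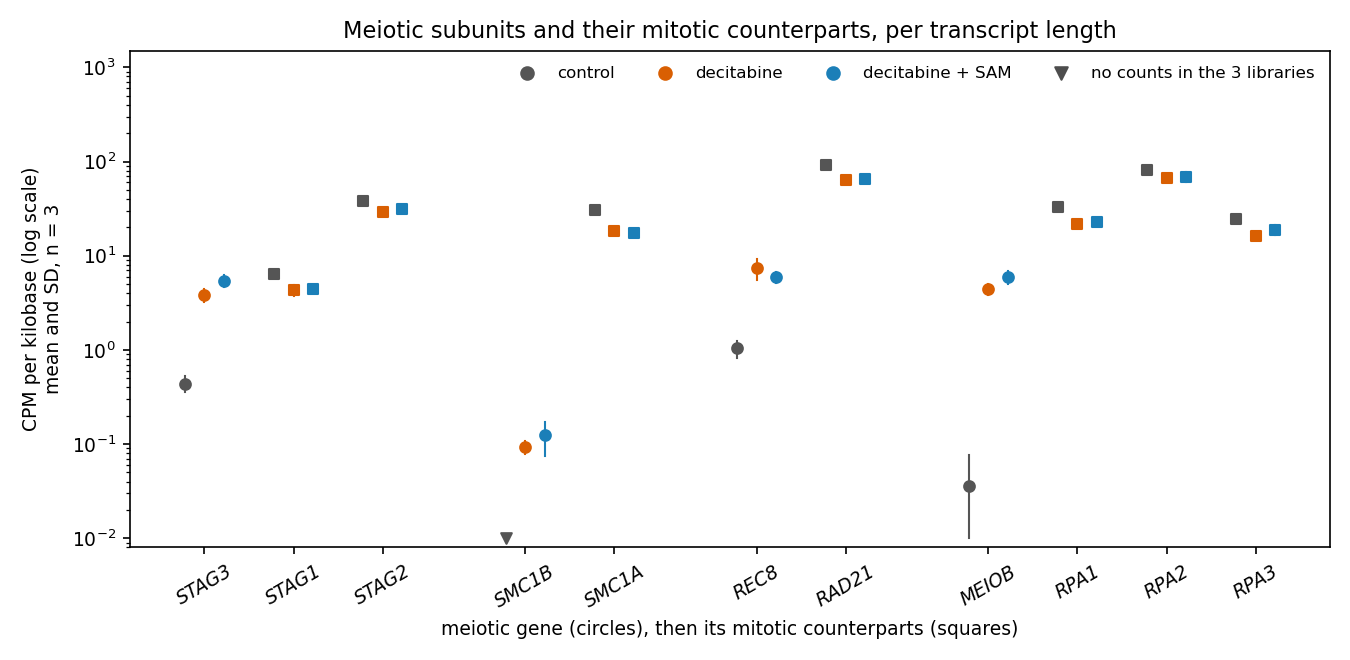
Meiotic genes (circles) and their mitotic counterparts (squares) in CPM per kilobase of transcript on a log axis, as the mean and SD of 3 libraries per group; bars that reach below 0.01 end there. The means of the meiotic genes lie higher in both treated groups, from 1.04 to 7.45 for REC8 after decitabine, while the counterparts shown lie lower than in the controls.

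The comparison of the 2 treatments asks what differs when SAM is added to decitabine. Of the 8 tested members 2 were called, in opposite directions. Among all genes tested, 7.67% were called higher and 8.02% lower after the combination than after decitabine. STAG3 was 1.41-fold higher (log2 fold change 0.50, 95% interval 0.21 to 0.79, adjusted p = 0.0251) and SYCP2 1.41-fold lower (-0.50, -0.74 to -0.25, adjusted p = 0.0108). As 1 gene with its copies, STAG3 stood at -0.02 (adjusted p = 0.891), and the copies STAG3L1, STAG3L2 and STAG3L3 were called lower by 0.75, 0.35 and 0.51 on the log2 scale. Both calls were lost when some single libraries were left out, as were many calls over all genes. Over all leave-one-out fits the log2 fold change ranged from -0.56 to -0.43 for SYCP2 and from 0.39 to 0.63 for STAG3. Over all genes, the 1421 higher and 1487 lower calls moved to 408 and 596 without decitabine replicate 2. They moved to 591 and 773 without combination replicate 1 and to 381 and 480 without combination replicate 2. Neither member was called without decitabine replicate 2, combination replicate 1 or combination replicate 2, with adjusted p of 0.0531 to 0.057 for SYCP2 and 0.0657 to 0.144 for STAG3. Without decitabine replicate 3 SYCP2 was called and STAG3 was not (adjusted p = 0.0568). Without combination replicate 3 the count was 3, with MEIOB added (adjusted p = 0.045).

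The other 6 tested members were not called between the treatments, which does not show that they were alike. HORMAD1 was lower in all 3 combination libraries, by 0.40 on the log2 scale (95% interval -0.73 to -0.07, adjusted p = 0.0904). SYCE1 lay at -0.57 (-1.15 to 0.00, adjusted p = 0.161) and MEIOB at 0.43 (0.06 to 0.80, adjusted p = 0.104), both without overlap between the groups, although for MEIOB the nearest libraries stood at 9.39 and 9.41 CPM. REC8 lay at -0.34 (-0.70 to 0.02, adjusted p = 0.187), SMC1B at 0.40 (-0.51 to 1.31, adjusted p = 0.559) and SYCP3 at 0.10 (-0.12 to 0.32, adjusted p = 0.537). For SYCP3 a difference between the treatments beyond 0.32 in either direction thus lay outside the interval. Libraries of the 2 treatments stood apart for 5 of the 8, 2 higher and 3 lower after the combination, where 17.2% of all genes lay wholly higher and 16.8% wholly lower. The median of the 8 was -0.12, beside 0.002 for all genes.

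**Figure D4:**
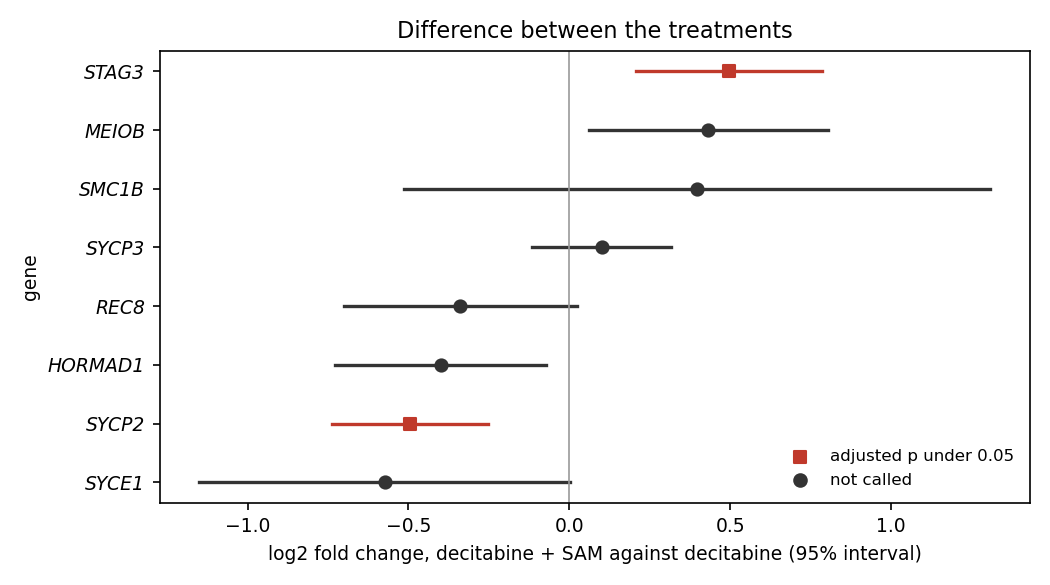
Log2 fold change of the 8 tested genes, combination against decitabine, with 95% intervals from the fit. STAG3 at 0.50 and SYCP2 at -0.50 were called at an adjusted p under 0.05, and the intervals of REC8, SMC1B, SYCP3 and SYCE1 include 0.

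Within the groups, the levels of the members differed between libraries. Decitabine replicate 1 held the highest level of 7 of the 8 tested members and decitabine replicate 3 the lowest of 6. Among the combination libraries, replicate 3 was lowest for 6. The share of all genes with such an order was not determined. SMC3, which fell after treatment, also declined over the decitabine replicates in turn (77.54, 68.92 and 62.55 CPM). RAD21 did so too (245.3, 240.9 and 207.8 CPM), while STAG1 did not (26.85, 29.44 and 22.4 CPM). The order was thus not particular to the members. REC8 ran from 13.5 to 21.7 CPM after decitabine, a range that overlapped that of the combination, 11.9 to 15.3 CPM.

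Other genes of the meiotic programme both rose and fell. Of 49 such genes listed by role, 30 were tested, of which 16 rose and 9 fell after decitabine, where 36.3% of all genes rose and 32.5% fell. After the combination 16 rose and 7 fell, beside 35.9% and 31.3% of all genes. Some of the 30, such as TEX11, SPATA22 and MAJIN, had no control counts and passed the count minimum only through the treated libraries, so the number that rose carries no weight of its own. Scaled by library size alone, 17 rose and 6 fell after decitabine, beside 47.7% and 20.2% of all genes, and 17 rose and 5 fell after the combination, beside 46.9% and 20.8%. The lists by role hold 3 to 7 tested genes each, and their counts are to be read against these shares. Of the other axis and synaptonemal complex genes, 5 of 9 were tested, and 2 rose and 1 fell with each treatment, close to the shares of all genes. TEX11, which promotes crossovers, had no control counts and was at least 25.0-fold higher after decitabine (28, 30 and 30 counts, adjusted p = 1.7e-06). RAD21L1, another meiotic kleisin, rose by 1.36 on the log2 scale, used for all changes of these genes (SE 0.35, adjusted p = 0.00279). SYCE2, a central element protein like SYCE1, fell by 1.54 (SE 0.28, adjusted p = 0.00023), from 71, 57 and 53 counts to 18, 29 and 26. SYCE1 and SYCE2, which act in the same central element, therefore moved in opposite directions.

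Of the genes for programmed breaks, 5 of 9 were tested, with 3 higher and 1 lower in both comparisons. SPO11, which makes the breaks, had no counts in any of the 9 libraries and is named here although it falls outside the rule for named genes. IHO1, the break factor that HORMAD1 recruits to the axis, rose by 4.32 (SE 0.42, adjusted p = 5.7e-07), from 1, 3 and 1 counts to 43, 49 and 33. PRDM9, the histone methyltransferase that places the breaks, rose by 3.30 (SE 0.63, adjusted p = 0.00029), and MEI1 by 2.51 (SE 0.27, adjusted p = 1.2e-06). Of the strand exchange genes 5 of 6 were tested, and 2 rose and 2 fell after decitabine. SPATA22, the binding partner of MEIOB, had no control counts and was at least 13-fold higher (13.1, 24.1 and 8.7 counts, adjusted p = 0.00025), so both partners had counts in the treated libraries. HSF2BP, which brings BRCA2 to the breaks, rose by 0.74 (SE 0.17, adjusted p = 0.00171). MND1, a cofactor of DMC1, fell by 0.76 (SE 0.25, adjusted p = 0.0135), a call that was lost with scaling by library size alone.

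Of the crossover genes 7 of 12 were tested, and 3 rose and 3 fell with each treatment, again close to those shares. SHOC1, a crossover factor of the XPF family, rose by 4.87 after decitabine (SE 0.48, adjusted p = 9.4e-06), from 7, 10 and 6 counts to 212, 272 and 316. CNTD1, a cyclin-like crossover factor, had 2 control counts and a ratio of 19.1 (95% counting interval 5.00 to 163, adjusted p = 5.2e-05), and the ligase gene RNF212 rose by 1.87 (SE 0.45, adjusted p = 0.00183). Of the genes that tie telomeres to the nuclear envelope 3 of 6 were tested, and 2 rose and 1 fell. MAJIN had no control counts and was at least 9.08-fold higher (adjusted p = 5.2e-05), TERB1 had a ratio of 38.7 (10.4 to 325, adjusted p = 3.9e-06), and SUN1, which somatic cells also use, fell by 0.44 (SE 0.066, adjusted p = 3.2e-05).

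Of the genes of meiotic entry 5 of 7 were tested, and 4 rose and 1 fell after decitabine. STK31, a tudor domain protein of germ cells, rose by 7.34 (SE 0.19, adjusted p = 1.9e-12), MEIOSIN, which activates meiotic genes together with STRA8, by 3.38 (SE 0.43, adjusted p = 7.1e-06) and MEIOC, which prolongs meiotic prophase, by 2.42 (SE 0.38, adjusted p = 5.1e-05). Between the treatments 3 of the 30 genes were called, 1 higher and 2 lower after the combination, which is no more than the 7.67% and 8.02% of all genes would give. CCNA1, a germ line cyclin, was lower after the combination by 0.57 (SE 0.088, adjusted p = 0.00158) and SHOC1 by 1.31 (SE 0.33, adjusted p = 0.0282), while YTHDC2, the partner of MEIOC, was higher by 0.33 (SE 0.085, adjusted p = 0.0203). Without decitabine replicate 2, combination replicate 1 or combination replicate 2 the count fell to 1, and the calls over all genes fell as well. The genes of late male germ cells, such as the protamines, were not tested: the summed counts of 10 such genes were 0 to 4 in the controls, 5 to 9 after decitabine and 3 to 5 after the combination.

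**Figure D5:**
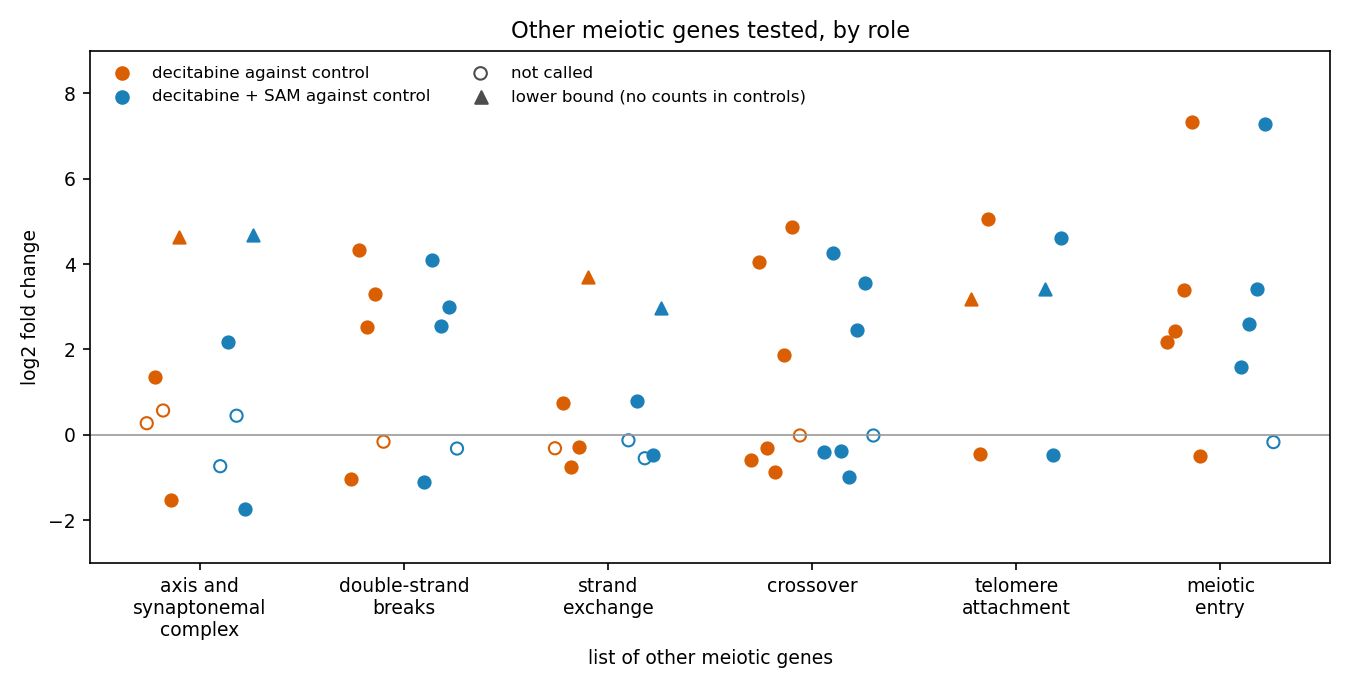
Log2 fold change against the controls of the 30 other meiotic genes tested, by role, for decitabine and the combination; open symbols were not called and triangles are lower bounds for genes without control counts. Each role holds genes above and below 0, from -1.54 for SYCE2 to 7.34 for STK31 after decitabine.

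Marker genes of other cell types moved as well, beside 36.3% of all genes called higher after decitabine and 35.9% after the combination. The summed counts of 4 leukocyte markers were 36 to 71 in control libraries, 132 to 245 after decitabine and 126 to 235 after the combination. All 3 tested were higher with both, while CD3E held 0 to 2 counts. Most of these counts were of LCP1, with 32 to 65 in the controls and 89 to 203 in the treated libraries. PTPRC held 1 to 2 in the controls and 13 to 30 in the treated libraries. Of 3 endothelial markers the sums were 199 to 211, 731 to 987 and 859 to 1007, 2 of the 2 tested were higher, and CDH5 held 0 to 10. Nearly all of these counts were of PECAM1, an adhesion molecule, with 197 to 206 in the controls and 700 to 990 in the treated libraries. Of 6 Sertoli and Leydig cell markers the sums were 72 to 90, 148 to 203 and 181 to 205, 2 of the 3 tested were higher after decitabine and 3 after the combination, and FSHR was at 0 in all libraries. Their part in the values of the meiotic genes was not tested.

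Among 14271 genes outside these lists whose mean reached 50 counts in any of the groups, the pattern most like the median of the 8 tested members over the 9 libraries was that of SLC24A3, which encodes a sodium, potassium and calcium exchanger (root mean square difference 0.147 on the log2 scale). SLC24A3 stood at 0.28 ± 0.056 CPM (SD, n = 3) in the controls, 6.38 ± 1.31 after decitabine and 5.19 ± 0.37 after the combination. BGN, a matrix proteoglycan (0.185), ALDH1L2, a mitochondrial folate enzyme (0.191), the long non-coding RNA MAGI2-AS3 (0.224) and TNFRSF1B, a receptor for tumor necrosis factor (0.225) came next. Of the members themselves SYCE1 lay closest to that median, at 0.243, and SYCP3 farthest, at 1.97.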

How the data were processed

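Total RNA of 9 PC-3 libraries was sequenced on the BGISEQ-500 platform, and per the labels the reads were trimmed with Trim Galore 0.6.4 and quantified with kallisto on GRCh38.p13. The annotation release and the strand setting are not given in the sources used here. The authors deposited estimated counts per gene, which need not be whole because kallisto divides reads between similar transcripts. The 9 deposited log2 CPM files were not used. Groups and replicate numbers were taken from the labels. The members and lists were chosen with earlier results of these data known. Of the mitotic counterparts 1 gene, and of the marker lists 3, are not reported here and stand outside the counts given.

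Estimated counts were rounded and tested with edgeR 4.0.16 in R 4.3.3 (TMM, filterByExpr, robust quasi-likelihood fit of all 9 libraries by group), with Benjamini-Hochberg adjustment over 18532 genes and a threshold of 0.05. Genes without control counts were compared with a floor of 3 counts over the group, and those with few were given exact 95% intervals of the count ratio. SYCP1 and DMC1 were compared by two-sided exact permutation tests. Depth was 21934307 to 22489684 counts per library, and no 2 replicates agreed within sampling noise. The fit was tested on simulated counts. Alternatives tried were scaling by library size or by the size factors of DESeq2, tests with DESeq2 1.42.0 or with voom and limma 3.58.1 (the study's method), other count filters (none, or a mean of 10), a fit of just the 6 libraries in a comparison, a replicate block, a log2 fold change over 1 and leaving out each library; STAG3 summed with its copies was added after seeing the data. Named were all members, the other mitotic counterparts, the 3 genes per related list that changed most with decitabine, those called between the treatments and the 5 genes most like the members. Coordinates and transcript lengths are from GENCODE 44 on GRCh38, matched by identifier.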

Additional observations from a re-analysis of the deposited data

How the results depend on the processing

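Against the controls 8 members were called after each treatment under every alternative that kept STAG3 apart from its copies, except that SMC1B dropped out of the test with a mean of at least 10 counts and with only the 6 libraries compared (7 called) and that DMC1 was added with no filter after the combination (9 called). In the main fit 5 of the 8 passed the count minimum only through the treated libraries, so their repeated calls carry no weight of their own. Of all genes tested, 36.3% were called higher after decitabine in the main fit and 47.7% with library size alone. After the combination these shares were 35.9% and 46.9%. STAG3 summed with its copies was called in no comparison and lay at -0.0209 between the treatments. Between the treatments 2 members were called, 0 to 3 when 1 library was left out, and 0 at a log2 fold change over 1. Of the related genes 3 were called between the treatments, 1 to 3 when 1 library was left out and 1 at a log2 fold change over 1. HORMAD1 was called between the treatments with voom and limma (adjusted p = 0.0471) and MEIOB with no filter (adjusted p = 0.0425). The fitted log2 fold change of SYCP3 after decitabine ranged from 9.56 to 10.6 over the alternatives that kept control replicate 1. Same-numbered libraries were not treated as pairs, since the labels do not link them and the correlations of their deviations, -0.017 to 0.233, did not all exceed 0.1; 7 of 9 libraries correlated best with their own number, a hint of pairing from the data. With the replicate block the members called stayed at 8, 8 and 2, and the genes called between the treatments over the whole table moved from 1421 higher and 1487 lower to 1766 and 1890. Depth limits SYCP1, DMC1 and SMC1B, whose values rest on 16 counts a library or fewer.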

Other observations

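Genes on the opposite strand whose main transcript starts within 1000 bases upstream of that of a member were looked up. This was done after the values of the members were seen, and 3 were tested. RIBC2, which starts 94 bases from SMC1B, stood at 0.98 ± 0.30 CPM (SD, n = 3) in the controls, 0.73 ± 0.063 after decitabine and 1.19 ± 0.21 after the combination, and was not called in edgeR with either treatment (log2 fold change -0.41, adjusted p = 0.246, and 0.28, adjusted p = 0.407). GPC2, a glypican gene 537 bases from STAG3, stood at 4.43 ± 0.24, 4.95 ± 0.56 and 7.01 ± 0.80 CPM, and was called after the combination (0.66, adjusted p = 0.00126) and not after decitabine (0.16, adjusted p = 0.375). The long non-coding RNA ENSG00000288107, 276 bases from SYCE1, was called with both (2.28, adjusted p = 0.00021, and 1.76, adjusted p = 0.00247).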
